A study of Vitis vinifera with 24 samples.

Results

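The 100 most abundant leaf transcripts of the grapevine cultivar 'Thompson Seedless' were followed through 8 treatments. Transcripts were ranked by their mean FPKM (fragments scaled to transcript length and to the mapped fragments of the library) over the 3 control libraries, and the 100 highest of the 35840 identifiers in the table, 0.279% of them, formed the set. All values below are on this scale, in which a gene's level is relative to the rest of its library, so the levels of different genes can be compared per length but no absolute amount of RNA is measured. Because the control values chose the members, levels in control and differences from control are given as descriptions, and tests were made only in comparisons without a control library.

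A few nuclear genes supply a large part of the messenger RNA of any plant tissue. In green leaves they typically include genes for the small subunit of Rubisco, which fixes carbon dioxide, for the chlorophyll-binding antenna proteins and other photosystem subunits, and for housekeeping proteins of translation and metal binding. Transcripts of photosynthesis genes are known to decline in many plants under cold, salt or water deficit, while transcripts of protective proteins accumulate. The table gives identifiers only: 99 members begin with Vitvi and 1 with PT_newGene, an identifier of a second kind, and 0 of the 100 matched the reference table of gene names. None of these functions could therefore be assigned to a member, and neither the identity of the tissue nor the cell types of the leaf could be checked against markers.

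Leaves came from self-rooted cuttings in a greenhouse and were either untreated (control) or sampled after 48 h of trehalose, a disaccharide of glucose, of low temperature (4 ℃, called cold here), of NaCl, of PEG6000, a polymer that lowers water potential, or of trehalose together with 1 of these stresses. Each of the 8 groups had 3 libraries labelled as biological replicates. Whether these are separate plants is not stated in the labels. P-values set differences against the spread between libraries, pooled over the 8 groups, and need not cover the spread between plants. The labels give no dose, no batch and no sampling time for control. In whole-leaf RNA, fewer cells of a type and less RNA per cell cannot be told apart.

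Within the set the control level spanned 31.0-fold, from a mean of 18557 FPKM at rank 1 to 599 FPKM at rank 100, with 5143 FPKM at rank 10 and a median of 1272 FPKM. By comparison, the median of the 20053 genes that reached 1 FPKM in at least 3 libraries was 7.52 FPKM. In control 4 members were at 10000 FPKM or more and 64 at 1000 FPKM or more. At the edge of the set, Vitvi14g00101 and Vitvi04g04319 had 600.5 ± 6.4 and 599 ± 15.6 FPKM (SD, n = 3), and the first genes left out, Vitvi18g00214 and Vitvi01g01923, had 593 ± 34.8 and 576 ± 8.1 FPKM. Replicates of rank 100 and of the first gene left out overlapped, so the set has no sharp lower limit. No member was lost in any treatment: the lowest value of a member in any library was 145 FPKM. The replicates were close, with a median coefficient of variation of 1.52% over members and groups, against 5.80% over all genes tested, and 796 of 800 combinations of member and group were under 10%.

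The first member, Vitvi17g00320, was at 19058, 18397 and 18215 FPKM in control and at 18898, 18781 and 18455 FPKM with trehalose. It was at 10744, 10415 and 10605 FPKM in the cold, 12710, 12566 and 13088 FPKM with NaCl and 9957, 10241 and 9960 FPKM with PEG6000. In every stressed library it was below every control library. The second member, Vitvi19g01871, behaved otherwise: it was at 15863, 16029 and 16255 FPKM in control, at 14540, 14138 and 14059 FPKM in the cold and at 17828, 17824 and 17533 FPKM with NaCl. With PEG6000 it was at 12974, 13076 and 12486 FPKM and with trehalose and PEG6000 at 9819, 8964 and 8901 FPKM, its lowest values. It took over as the most abundant gene in cold, trehalose with cold, NaCl, trehalose with NaCl and PEG6000 leaves, while Vitvi17g00320 stayed first with trehalose alone and with trehalose and PEG6000.

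Ranks 3 to 9 were held by Vitvi10g01839, Vitvi10g00740, Vitvi06g00513, Vitvi12g02485, Vitvi18g00158, Vitvi19g01479 and Vitvi12g01968, with control means from 10464 down to 5210 FPKM. All 7 had lower means than control under cold, NaCl and PEG6000. Vitvi17g00615, at rank 10, went furthest of the first 10 in the cold, with 5194, 5084 and 5150 FPKM in control, 1343, 1339 and 1359 FPKM in the cold and 3065, 2997 and 3078 FPKM with NaCl. Just below it, Vitvi07g02246 (rank 11) was at 5108, 5045 and 4970 FPKM in control and at 1395, 1402 and 1377 FPKM in the cold. It was at 1467, 1458 and 1507 FPKM with NaCl and at 1463, 1462 and 1542 FPKM with PEG6000, so that the 3 stresses brought it to nearly the same level.

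The 100 members held 35.9 ± 0.058% of all FPKM in control leaves (SD, n = 3) and 35.2 ± 0.20% in leaves given trehalose. The share was 28.0 ± 0.17% with NaCl, 24.3 ± 0.12% in the cold and 21.5 ± 0.12% with PEG6000. With trehalose it was 33.3 ± 0.079% under NaCl, 26.9 ± 0.20% in the cold and 27.8 ± 0.44% under PEG6000, in each case above every library of the same stress without trehalose. The gap between leaves with and without trehalose was wider under PEG6000 and NaCl than in the cold. The control value is the one that chose the members, and the other 7 values carry no p because they are sums over chosen genes. Among the libraries given trehalose and PEG6000, replicate 1 stood a little apart at 28.3%, with 27.5% in each of the other two.

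**Figure D1:**
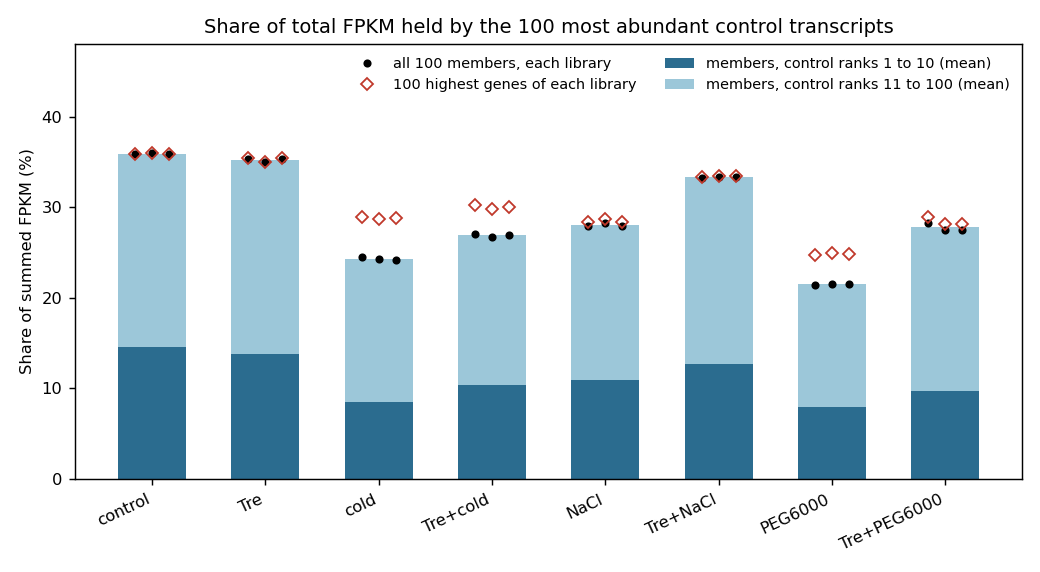
Share of summed FPKM in percent for the 8 groups, 3 libraries each. Bars are group means of the members, split at control rank 10; dots are the members in each library, from 21.4% in a PEG6000 library to 36.0% in a control library, and open diamonds are the 100 highest genes of each library whichever they are, which stand clearly above the dots only in cold, trehalose with cold and PEG6000 leaves.

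The whole distribution was measured in the same way. The 100 highest genes of each library, whichever they were, held 35.9 ± 0.056% in control, 28.8 ± 0.084% in the cold, 28.5 ± 0.17% with NaCl and 24.8 ± 0.095% with PEG6000 (SD, n = 3). These shares also lay below control, without overlap of replicates. In control 416 ± 1.0 genes held 50% of the FPKM, in the cold 527 ± 2.3, with NaCl 741 ± 4.7 and with PEG6000 836 ± 4.7. NaCl and cold leaves thus had nearly the same share in their 100 highest genes, while more genes were needed under NaCl to reach 50%. With trehalose the number was 534 ± 4.2 under NaCl, 514 ± 6.7 in the cold and 773 ± 39.4 under PEG6000.

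The share that left the members was found mostly among genes of medium level. Genes below control rank 1000 and down to rank 10000 held 34.5 ± 0.040% of the FPKM in control, 40.4 ± 0.098% with NaCl, 40.9 ± 0.090% in the cold and 44.7 ± 0.080% with PEG6000. Genes after rank 10000 went from 4.37 ± 0.012% in control to 8.99 ± 0.023% in the cold and 10.5 ± 0.062% with PEG6000. The genes just below the members, from there down to rank 1000, stayed between 23.3 and 25.8% in all 8 groups. All ranks here are those of control, the values that chose the members.

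**Figure D2:**
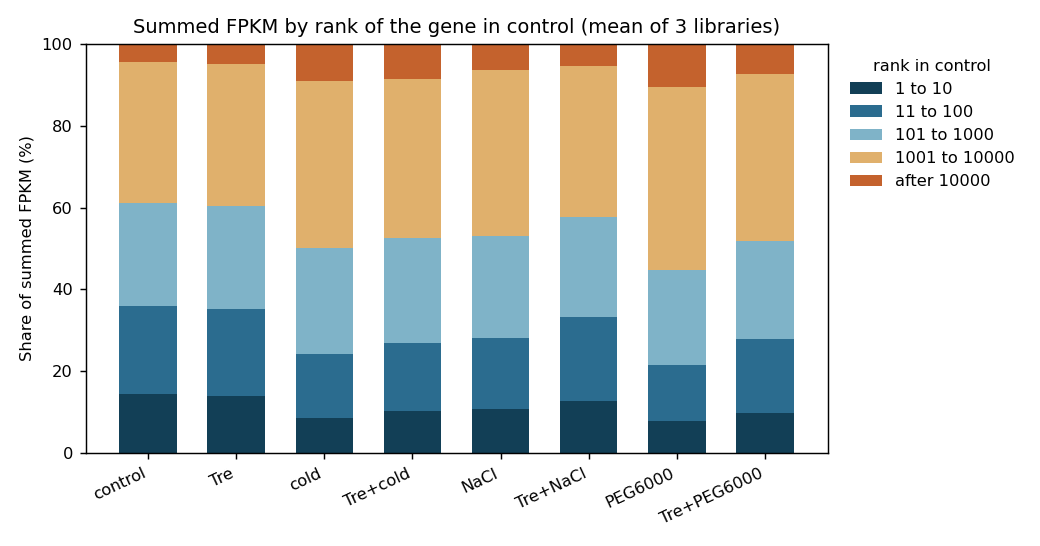
Share of summed FPKM in percent (mean of 3 libraries) held by genes grouped by their rank in control, for the 8 groups. The 2 dark blocks at the bottom are the members, 14.5 and 21.4% in control against 7.91 and 13.6% with PEG6000, while the next block, down to rank 1000, keeps nearly the same height and those above it widen.

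Much of the difference lay in the most abundant members, since points of share weigh each member by its level. In control, ranks 1 to 10 held 14.5% of all FPKM and ranks 11 to 100 held 21.4%. Between control and PEG6000 the share of the set was 14.4 percentage points lower, of which ranks 1 to 10 made up 45.9%. In the cold they made up 52.3% of 11.6 points and with NaCl 46.3% of 7.89 points. Of the losses of single members, 14 members accounted for 50% under PEG6000, and 12 did so in the cold and with NaCl. Vitvi17g00320 had the largest single loss in all 3 stresses, 1.31, 1.21 and 0.826 points under PEG6000, cold and NaCl. Its ratios to control were 0.542, 0.571 and 0.689 in this order, near the members' medians of 0.496, 0.543 and 0.710. The losses were spread widely all the same: 90 members had a lower share of FPKM under PEG6000, 83 in the cold and 79 with NaCl. The largest gains belonged to Vitvi05g04015, with 1.10 points under PEG6000 and 0.739 points in the cold, and to PT_newGene_1537, with 0.841 points under NaCl.

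The set was partly replaced in cold and PEG6000 leaves. Of the 100 members, 97 were also among the 100 highest genes with trehalose, 94 with trehalose and NaCl, 88 with NaCl and 88 with trehalose and PEG6000. The number was 70 with trehalose and cold, 69 with PEG6000 and 61 in the cold. Of all 100 members, including those that kept their place, 91 were within the 200 highest genes in the cold and 93 with PEG6000. The lowest rank of any member was 618, that of Vitvi08g01196 in the cold. Of the 31 members outside the 100 highest with PEG6000, 19 were inside with trehalose and PEG6000. Of 39 outside in the cold, 11 were inside with trehalose and cold, and of 12 outside with NaCl, 6 were inside with trehalose and NaCl. A core of 55 members was among the 100 highest in all 8 groups.

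The genes that took these places were of 2 kinds. In the cold 39 genes entered the 100 highest and together held 7.50% of the FPKM, and 17 of them had been under 100 FPKM in control. With PEG6000 31 entered, holding 5.30%, and 15 of them had been under 100 FPKM. With NaCl 12 entered, holding 1.29%, and every one had been at 134.7 FPKM or more in control. Under cold and PEG6000 the larger part of the entrants had thus been at 100 FPKM or more in control. The rest came from further down the control list, and with NaCl no entrant did so.

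Member by member, the median ratio of the group mean to the control mean was 0.496 with PEG6000, 0.543 in the cold and 0.710 with NaCl, where the medians over all 20053 genes were 1.05, 0.833 and 1.14. Against control 51 members were at a ratio of 0.5 or below with PEG6000, as were 12.7% of all genes, and 3 members at 2 or above, as were 18.7% of all genes. In the cold 36 members were at 0.5 or below (22.8% of all genes) and 4 at 2 or above (16.1%). With NaCl 11 were at 0.5 or below (2.46%) and 1 at 2 or above (11.8%). Genes chosen for high control values can more easily be lower than higher elsewhere, so nothing is read from these counts. They also depended on the scaling. With median-of-ratios scaling, which sets the typical gene to no change, 14 members were at 0.5 or below in the cold and 25 with NaCl. With quantile normalization, which forces the same distribution on every library, 17 were so with PEG6000, and with NaCl 4 were at 0.5 or below and 4 at 2 or above.

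With trehalose alone the members stayed near control, with a median ratio of 0.978. Of the members 0 were at 0.5 or below (1.74% of all genes) and 1, Vitvi08g01196, was above 2 (4.28%). With trehalose and NaCl the median ratio was 0.874, with 0 members at 0.5 or below (0.833%) and 1 at 2 or above (5.3%). With trehalose and cold it was 0.703, with 12 members at 0.5 or below (17.8%) and 3 at 2 or above (16.2%). With trehalose and PEG6000 it was 0.712, with 3 at 0.5 or below (1.76%) and 1 at 2 or above (17.5%). With median-of-ratios scaling 10 members were at 0.5 or below with trehalose and PEG6000 and 6 with trehalose and cold, and with quantile normalization 2 were at 0.5 or below and 2 at 2 or above with trehalose and PEG6000. By control rank, the median ratio of ranks 1 to 25 was 0.457 with PEG6000, 0.473 in the cold and 0.618 with NaCl. That of ranks 76 to 100 was 0.609, 0.708 and 0.835. The ranks and the ratios use the same control values, so nothing is read from this order.

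**Figure D3:**
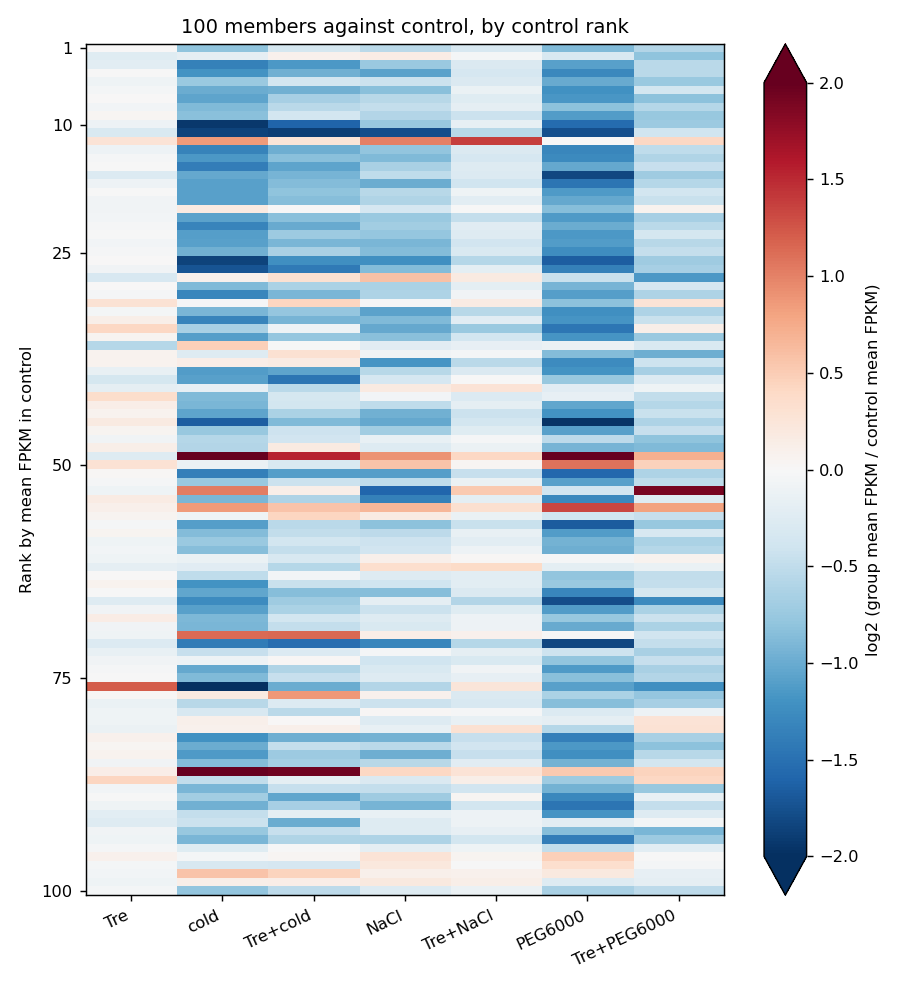
Log2 ratio of the group mean FPKM to the control mean FPKM for the 100 members (rows, by control rank) in the 7 other groups (columns); blue is lower and red higher than control, with colours capped at 2 in either direction. Most rows are blue under cold, NaCl and PEG6000 and paler in the columns with trehalose, and a few rows, such as ranks 12, 49 and 86, are red.

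Profiles over the groups were compared by Pearson's r between the log2 profile of a member and the median profile of the other 99. Over 8 group means, control included, r was over 0.9 for 53 members and for 3.40% of all genes tested, and below 0 for 11 members and 45.6% of all genes. Over the 7 means without control it was over 0.9 for 45 members and 2.93% of all genes, with medians of 0.88 and 0.15. The control values chose the members, and the profiles share libraries and scaling. The median profile is itself made from members, which favours members over other genes, so these values are a description. The mean was lowest with PEG6000 for 55 members (16.3% of all genes) and in the cold for 18 (31.3%). It was highest in control for 47 members (8.17%), a count that the choice on control values favours, and with trehalose for 24 (5.92%). Over the 8 groups 71 members varied 2-fold or more, as did 67.3% of all genes tested, and 13 stayed within 1.5-fold of control in all 7 other groups, as did 20.6% of all genes. The steadiest member was Vitvi05g00284 (rank 61), whose highest group mean was 1.34 times its lowest, from 880, 851 and 870 FPKM with trehalose and cold to 1155, 1171 and 1169 FPKM with NaCl. It was followed by Vitvi14g00101, at 1.36 times.

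At the other end, Vitvi08g01196 (rank 76) varied 12.5-fold. It was at 828, 812 and 821 FPKM in control, 1911, 1928 and 1882 FPKM with trehalose and 154, 145 and 159 FPKM in the cold. It was the only member above a ratio of 2 with trehalose alone. With trehalose and cold it was at 416, 418 and 398 FPKM, with NaCl at 556, 529 and 558 FPKM and with trehalose and NaCl at 983, 967 and 974 FPKM. Under PEG6000 it was at 379, 374 and 405 FPKM without and 366, 335 and 350 FPKM with trehalose. In these 2 groups the values did not overlap, but lay much closer together than in the other pairs.

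Vitvi19g00581 (rank 53) varied 11.2-fold. It was at 1168, 1204 and 1188 FPKM in control, 390, 397 and 396 FPKM with NaCl and 1679, 1716 and 1719 FPKM with trehalose and NaCl. In the cold it was at 2404, 2406 and 2427 FPKM, and with trehalose and cold at 1355, 1250 and 1238 FPKM. With PEG6000 it was at 886, 938 and 914 FPKM, and with trehalose and PEG6000 at 4674, 4285 and 4313 FPKM. Trehalose leaves were thus lower than leaves without it in the cold and higher under both other stresses.

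Vitvi05g04015 (rank 49) ran opposite to the set, with r of -0.98 with the median profile. It was at 1306, 1337 and 1316 FPKM in control, 5852, 5783 and 5737 FPKM in the cold, 2467, 2459 and 2485 FPKM with NaCl and 7860, 8400 and 7908 FPKM with PEG6000. With trehalose it was at 4058, 3693 and 3698 FPKM in the cold, 1787, 1733 and 1780 FPKM with NaCl and 2227, 2129 and 2141 FPKM with PEG6000. Every stress group lay above control and every trehalose group below its stress, without overlap. PT_newGene_1537 (rank 12), the only member of its kind of identifier, was at 4607, 5129 and 4791 FPKM in control, 9592, 10927 and 8656 FPKM with NaCl and 12932, 13052 and 11984 FPKM with trehalose and NaCl. Its replicates were the least even of the set, with 4894, 7855 and 6666 FPKM with trehalose and PEG6000, a coefficient of variation of 23.0%.

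**Figure D4:**
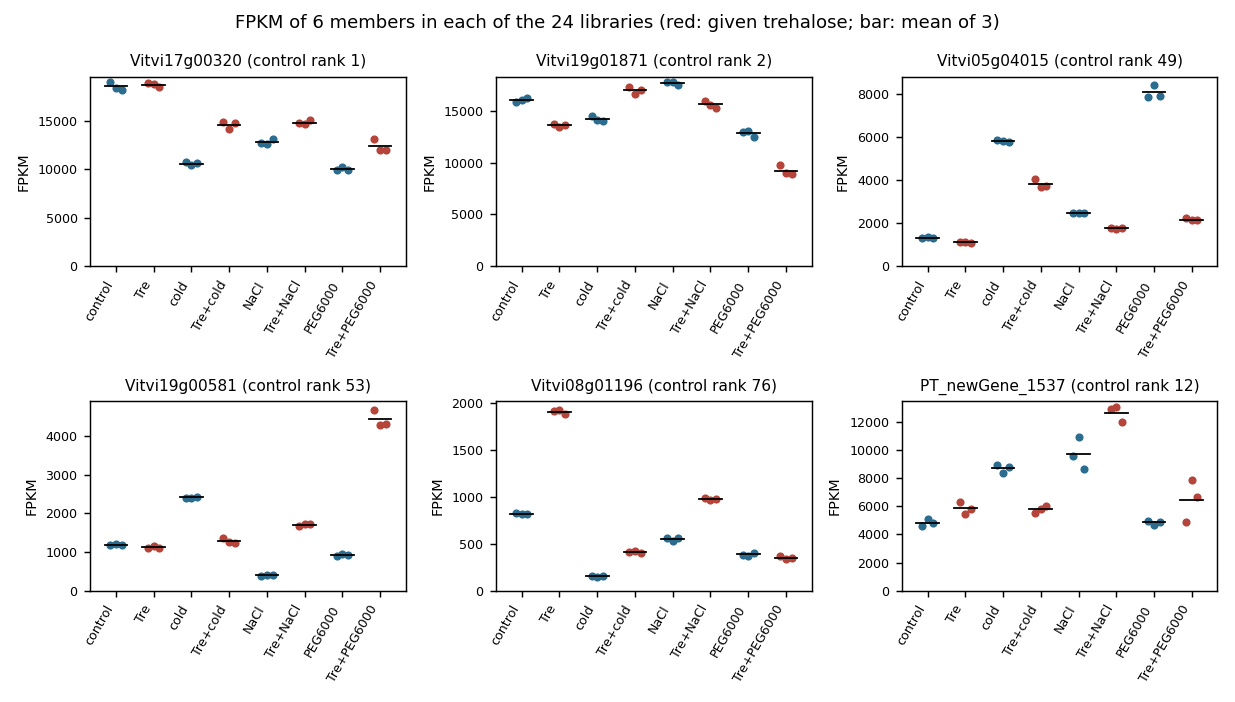
FPKM of 6 members in each of the 24 libraries, from 0 upwards on linear axes, with a bar at the mean of 3; red points are libraries given trehalose. Vitvi17g00320 is lower under each stress than in control, Vitvi05g04015 is higher and goes back towards control with trehalose, and Vitvi19g00581 peaks with trehalose and PEG6000.

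Stress effects were tested in leaves given trehalose, where the reference is trehalose alone and no control library enters. The tests used limma on log2(FPKM + 1) over all 20053 genes, with Benjamini-Hochberg adjustment and a call at an adjusted p below 0.05, and "at least 2-fold" means a call with a log2 change of at least 1 in size. All 100 members passed the filter, also when control libraries were left out of it. Cold lowered 76 members and raised 20 in these leaves, against 52.6 and 30.3% of all genes. At least 2-fold, 13 fell (11.7% of all genes) and 3 rose (11.5%). The median log2 change was -0.51 for the members and -0.20 for all genes. Of the first 10 members 9 fell and Vitvi19g01871 alone rose. The largest falls were those of Vitvi08g01196, with a log2 change of -2.21 (SE 0.034), and Vitvi07g02246, from 4074, 4084 and 4119 to 1393, 1362 and 1359 FPKM (-1.58, SE 0.026). The largest rises were those of Vitvi19g04218 (rank 86), from 796, 805 and 790 to 2796, 2781 and 2776 FPKM (1.80, SE 0.019), and of Vitvi05g04015 (1.79, SE 0.031). In limma the adjusted p of all 4 was 7.5e-24 or less. With median-of-ratios scaling 5 members fell at least 2-fold and 4 rose.

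PEG6000 lowered 80 members and raised 13 in leaves given trehalose, where 15.5% of all genes fell and 48% rose. At least 2-fold, 4 fell (0.753% of all genes) and 1 rose (6.17%). The median log2 change was -0.50 for the members and 0.15 for all genes. Quantile normalization gave -0.14 and -0.05 for these medians, and median-of-ratios scaling -0.67 and 0.02. All of the first 10 members fell. Vitvi08g01196 fell most (log2 change -2.44, SE 0.034), followed by Vitvi03g00048 (rank 37), which fell from 1776, 1759 and 1744 to 863, 850 and 861 FPKM (-1.04, SE 0.020). Vitvi19g00581 rose (1.98, SE 0.032), from 1111, 1146 and 1103 FPKM with trehalose alone, as did Vitvi05g04015 (0.97, SE 0.031), from 1109, 1130 and 1070 FPKM. The adjusted p of these 4 genes was at most 5.91e-18 in limma. With median-of-ratios scaling 9 members fell at least 2-fold, and 1 did with quantile normalization or with TPM-like scaling, which sets every library to the same sum. Quantile normalization gave 59 members called lower and 23 higher.

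As deposited, the changes with NaCl in leaves given trehalose were smaller by their median than those with cold or PEG6000. NaCl lowered 70 members and raised 19, where 16.1% of all genes fell and 33.4% rose, and the median log2 change was -0.18 for the members and 0.07 for all genes. Only Vitvi11g00089 (rank 34) fell at least 2-fold (0.539% of all genes), from 2383, 2379 and 2309 to 1060, 1051 and 1068 FPKM, a log2 change of -1.15 (SE 0.023). Only PT_newGene_1537 rose at least 2-fold (0.888%), from 6286, 5434 and 5837 FPKM with trehalose alone (1.11, SE 0.10), and in limma the adjusted p of both was 7.44e-09 or less. Vitvi08g01196 also fell (-0.97, SE 0.034) and Vitvi05g04015 also rose (0.68, SE 0.031). The split depended on the scaling: with quantile normalization 48 members were called lower and 35 higher, and with median-of-ratios scaling 79 and 12. So did the order of the members' median log2 changes: with median-of-ratios scaling they were -0.28 with NaCl, -0.27 with cold and -0.67 with PEG6000.

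The effect of trehalose was tested within each stress. Under PEG6000 it raised 80 members and lowered 19 (43.6 and 32.9% of all genes), with a median log2 change of 0.47 for the members and 0.08 for all genes. At least 2-fold, 10 rose (10.9% of all genes) and 1 fell (8.7%), shares near the background for the rises. The effect was larger at ranks 11 to 25, with a median log2 change of 0.77 and all 15 called higher, than at ranks 1 to 10 (0.35) and 76 to 100 (0.19). Vitvi19g00581 rose most (log2 change 2.28, SE 0.032). Vitvi11g00089 rose from 639, 648 and 654 to 1958, 1865 and 1907 FPKM (1.56, SE 0.023), above its 3 control values of 1815, 1753 and 1726 FPKM. Vitvi05g04015 fell most (-1.89, SE 0.031), and Vitvi01g00714 (rank 28) fell from 1443, 1451 and 1434 to 902, 870 and 885 FPKM (-0.70, SE 0.018). The adjusted p of the 4 genes was at most 1.77e-20 in limma. With median-of-ratios scaling 6 members rose at least 2-fold.

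Under NaCl trehalose raised 79 members and lowered 15, where 19.9% of all genes were called higher and 32% lower. The median log2 change was 0.28 for the members and -0.04 for all genes. At least 2-fold, 3 members rose (0.863% of all genes) and 0 fell (3.58%). Vitvi19g00581 rose most (log2 change 2.11, SE 0.032), followed by Vitvi07g02246, which rose from 1467, 1458 and 1507 to 3426, 3365 and 3513 FPKM (1.22, SE 0.026). Vitvi10g04049 (rank 50) fell from 1880, 1902 and 1924 to 1317, 1304 and 1309 FPKM (-0.54, SE 0.019), and Vitvi05g04015 fell by 0.48 on the log2 scale (SE 0.031). The adjusted p of these 4 genes was at most 4.97e-12 in limma. The surplus of rises depended on the scaling: quantile normalization gave 43 members higher, 30 lower and a median of 0.03 on the log2 scale, while median-of-ratios scaling gave 82 and 13.

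In the cold trehalose raised 75 members and lowered 18 (26.5 and 17.1% of all genes), mostly by little. The median log2 change was 0.29 for the members and 0.04 for all genes. At least 2-fold, 1 member rose (0.848% of all genes) and 0 fell (0.329%). The one that rose was Vitvi08g01196 (log2 change 1.42, SE 0.034), and Vitvi04g01421 (rank 48) was next, from 919, 908 and 885 to 1550, 1529 and 1551 FPKM (0.77, SE 0.019). Vitvi19g00581 fell (-0.91, SE 0.032), as did Vitvi05g04015 (-0.60, SE 0.031), and in limma the adjusted p of all 4 was 2.14e-13 or less. Vitvi07g02246, raised by trehalose under NaCl, was at 1395, 1402 and 1377 FPKM in the cold and at 1393, 1362 and 1359 FPKM with trehalose, a log2 change of -0.02 (SE 0.026, adjusted p = 0.558 in limma).

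**Figure D5:**
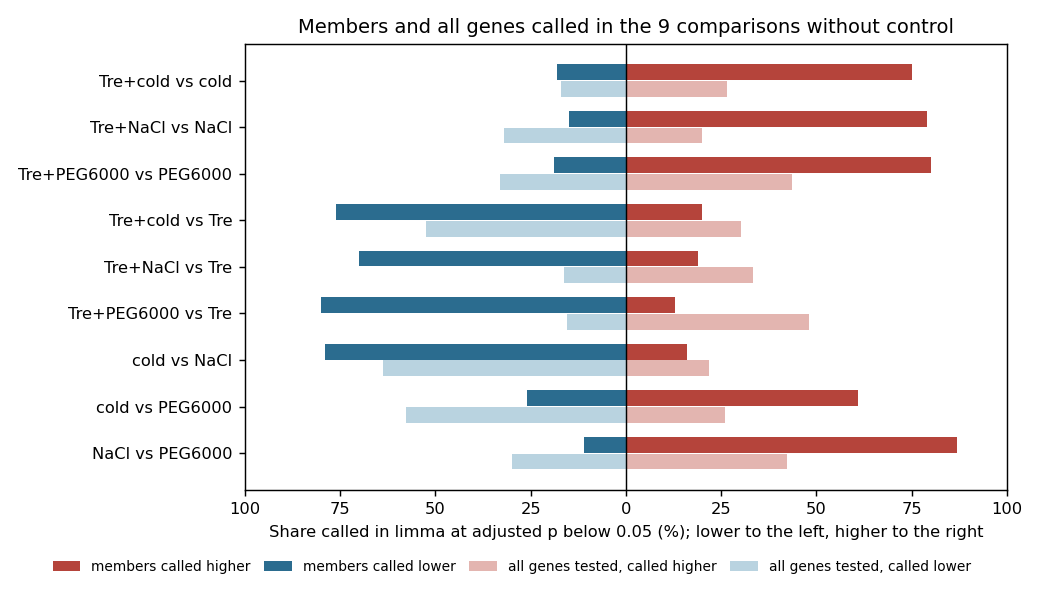
Percent called in limma at an adjusted p below 0.05 in the 9 comparisons without control, for the 100 members (dark bars) and all 20053 genes tested (pale bars); bars to the right are higher and to the left lower in the first group named. Members lie mostly to the right for trehalose with a stress against that stress, with 75 to 80 called higher, and to the left for trehalose with a stress against trehalose, with 70 to 80 called lower.

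Compared directly, the stresses without trehalose differed in how low the members lay. NaCl leaves were higher than PEG6000 leaves for 87 members and lower for 11 (42.4 and 29.9% of all genes), with a median log2 difference of 0.43 for the members and 0.08 for all genes. At least 2-fold, 4 were higher (4.16% of all genes) and 2 lower (7.8%). Vitvi13g00107 (rank 66) was at 855, 841 and 870 FPKM with NaCl and 280, 288 and 281 FPKM with PEG6000 (log2 difference 1.59, SE 0.025), and Vitvi13g01994 (rank 16) at 2408, 2399 and 2441 against 974, 978 and 974 FPKM (1.31, SE 0.019). The members lower with NaCl by the widest margin were Vitvi05g04015 (-1.70, SE 0.031) and Vitvi19g00581 (-1.21, SE 0.032), and the adjusted p of the 4 genes was at most 4.58e-20 in limma. With median-of-ratios scaling 2 members were higher at least 2-fold.

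Cold leaves were lower than NaCl leaves for 79 members and higher for 16 (63.8 and 21.7% of all genes). The median log2 difference was -0.30 for the members and -0.37 for all genes, but -0.61 and -0.13 with quantile normalization and 0.18 and 0.01 with median-of-ratios scaling. With the last of these the direction turned, with 63 members higher and 22 lower in the cold. At least 2-fold, 4 members were higher (8.22% of all genes) and 3 lower (15.3%), but 17 were lower with quantile normalization. Vitvi19g00581 was 2.61 higher on the log2 scale (SE 0.032), and Vitvi19g04218, at 2952, 2908 and 2933 FPKM in the cold and 972, 957 and 971 FPKM with NaCl, was 1.60 higher (SE 0.019). Vitvi08g01196 (-1.84, SE 0.034) and Vitvi17g00615 (-1.18, SE 0.021) were lower. In limma the adjusted p of all 4 was 3.15e-23 or less. These single genes kept their direction under all scalings.

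Against PEG6000 leaves, cold leaves were higher for 61 members and lower for 26 (26 and 57.8% of all genes), with a median log2 difference of 0.13 for the members and -0.28 for all genes. At least 2-fold, 5 were higher (8% of all genes) and 2 lower (16.6%). Here too the split turned with the scaling: median-of-ratios scaling gave 87 higher and 8 lower, with 13 and 0 at least 2-fold, and quantile normalization 31 higher and 58 lower. Vitvi19g04218 was at 1061, 1037 and 1035 FPKM with PEG6000 and lay 1.49 higher in the cold on the log2 scale (SE 0.019), and Vitvi19g00581 1.40 higher (SE 0.032). Vitvi08g01196 (-1.33, SE 0.034) and Vitvi10g04049, at 1173, 1154 and 1180 against 2691, 2694 and 2701 FPKM (-1.20, SE 0.019), were lower. The adjusted p of these 4 genes was at most 1.27e-21 in limma.

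Whether trehalose acted differently on the members under different stresses was tested as a difference between its effects, again without control libraries. The effect under PEG6000 was higher than in the cold for 58 members and lower for 31 (36.4 and 32% of all genes), by at least 2-fold for 7 and 2 members (9.96 and 9.23% of all genes). All 15 members at ranks 11 to 25 were among the 58, but the other ranks were mixed. Ranks 1 to 10 had 4 higher and 5 lower, and ranks 26 to 50 had 16 and 8. Ranks 51 to 75 had 11 and 8, and ranks 76 to 100 had 12 and 10. The effect under PEG6000 was higher than under NaCl for 64 members and lower for 18 (40.1 and 19.9% of all genes), by at least 2-fold for 1 and 1 (8.82 and 5.07%). The median log2 difference was 0.16 for the members and 0.13 for all genes, so the members moved little more than the typical gene. With median-of-ratios scaling the latter split was 20 higher and 35 lower, and the median over all genes moved from 0.13 to -0.03 on the log2 scale. The effect under NaCl was higher than in the cold for 48 members and lower for 39 (14.4 and 32% of all genes), by at least 2-fold for 3 and 1 (1.18 and 4.99%), and the split was 23 and 58 with quantile normalization and 53 and 27 with median-of-ratios scaling.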

How the data were processed

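RNA from 24 leaf libraries was sequenced by the authors, who deposited 1 table of FPKM values per gene and library, with replicates not pooled; the unit is taken from the table's name and values. Per the submitters' processing notes, the tools included StringTie 2.1.3b, HISAT2 2.1.0, SAMtools 1.9 and fastp 0.20.0, with no role or order given; the sources used here do not give genome build, annotation, strandedness or read depth, so counts and counting intervals could not be had. Reads of near-identical or overlapping genes may have been divided between identifiers. Columns were assigned to samples by name, with 0 left over, and 0 pairs of libraries were identical.

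FPKM summed to between 597567 and 637648 per library. Members were the 100 identifiers with the highest mean over the 3 control libraries. The members, comparisons and rules were chosen with earlier results of these data known. Shares are percent of a library's summed FPKM. Linear models with a mean-variance trend were fitted in limma 3.58.1 (R 4.3.3) on log2(FPKM + 1), a scale that understates changes of low genes, for the 20053 genes at 1 FPKM or more in at least 3 libraries, with 1 mean per group and 16 residual degrees of freedom. Two-sided p-values were adjusted by the Benjamini-Hochberg method over all genes within each of 12 comparisons. Genes were named by rule: control ranks 1 to 10, the edge of the set, the 2 largest called rises and falls per comparison without overlap of replicates, and the 2 steadiest and 2 most variable members. In simulated data for trehalose with PEG6000 against PEG6000, over 20053 genes, the test called 33 of 50 genes changed 1.2-fold and 50 of 50 changed 2-fold, with 12 false calls. There few genes were changed, all of higher level, and the noise was normal and independent between genes. In the measured comparison 8735 genes were called higher and 6606 lower, so these rates need not hold for it. Tables and plots came from Python 3.11.15 with pandas 2.3.3, numpy 2.4.6 and matplotlib 3.10.9. Alternatives were other scalings, pseudocounts, filters, fold limits and set sizes, a fit without the trend, a replicate block and each library left out. Planned gene lists and cell type markers could not be matched to identifiers and were not used.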

Additional observations from a re-analysis of the deposited data

Results flagged for a closer look

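Some members differed in their response to trehalose between stresses, by a test of the difference itself in limma. At least 2-fold differences were called for 9 members between PEG6000 and cold (19.2% of all genes), 4 between NaCl and cold (6.17%) and 2 between PEG6000 and NaCl (13.9%), so the members' shares were below those of all genes in each. The widest were those of Vitvi19g00581, whose trehalose effect was 3.19 higher on the log2 scale under PEG6000 than in the cold (SE 0.045) and 3.02 higher under NaCl than in the cold (SE 0.045), because it fell with trehalose in the cold (-0.91) and rose under NaCl (2.11) and PEG6000 (2.28).

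Vitvi08g01196 went the other way, with a difference of -1.56 between PEG6000 and cold (SE 0.048) and of -0.97 between PEG6000 and NaCl (SE 0.048); its trehalose effect was 1.42 in the cold, 0.83 under NaCl and -0.14 under PEG6000. Vitvi05g04015 fell more with trehalose under PEG6000 than in the cold (-1.29, SE 0.044) or under NaCl (-1.41, SE 0.044). Vitvi19g00257 (rank 89) had a trehalose effect of 1.15 under PEG6000 and -0.34 in the cold, a difference of 1.49 (SE 0.028). Its values were 289, 288 and 288 FPKM with PEG6000 and 638, 645 and 640 FPKM with trehalose and PEG6000.

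Between PEG6000 and NaCl, the effect on Vitvi11g00089 differed by 1.28 (SE 0.032) and that on Vitvi19g00549 (rank 31) by 0.91 (SE 0.027). Vitvi19g00549 was at 1052, 1044 and 1049 FPKM with PEG6000 and 2209, 2297 and 2260 FPKM with trehalose and PEG6000. Between NaCl and cold, the effect on Vitvi07g02246 differed by 1.24 (SE 0.036), that on Vitvi18g00095 (rank 77) by -1.06 (SE 0.031) and that on Vitvi13g00107 by -0.94 (SE 0.035). Vitvi18g00095 rose with trehalose in the cold (0.69) and fell with it under NaCl (-0.37). The adjusted p of all 12 differences was at most 2.7e-14 in limma.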

How the results depend on the processing

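All 48 directions of named genes kept their sign and their call under every alternative run (888 of 888 values). The share of FPKM for control, trehalose, cold, trehalose with cold, NaCl, trehalose with NaCl, PEG6000 and trehalose with PEG6000 was, in this order, 29.1, 28.3, 18.6, 20.8, 22.2, 26.7, 16.9 and 21.5% for the 50 highest genes and 42.4, 41.7, 29.4, 32.4, 33.7, 39.4, 25.9 and 33.4% for the 200 highest. With ranks 1 to 10 left out of both the members and the total, it was 25.0, 24.8, 17.3, 18.4, 19.2, 23.6, 14.8 and 20.0% in the same order. With the 100 highest genes of trehalose leaves it was 35.8% in control and 33.2% with trehalose and NaCl. Without 1 library it ranged from 35.9 to 35.9% (control), 35.2 to 35.3% (trehalose), 24.3 to 24.4% (cold), 26.8 to 27.0% (trehalose and cold), 27.9 to 28.1% (NaCl), 33.2 to 33.3% (trehalose and NaCl), 21.5 to 21.6% (PEG6000) and 27.5 to 27.9% (trehalose and PEG6000).

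Members 2-fold from control numbered 20 (cold), 25 (NaCl) and 11 (trehalose and PEG6000) with median-of-ratios scaling and 20 (PEG6000) with quantile normalization. At 1.5-fold they numbered 71 (cold), 48 (trehalose and cold), 42 (NaCl), 2 (trehalose and NaCl) and 40 (trehalose and PEG6000). Members called 2-fold for trehalose with a stress against that stress were, in the order cold, NaCl and PEG6000, 9, 16 and 40 at 1.5-fold; quantile normalization gave 2 for cold and 1 for NaCl, and median-of-ratios scaling 7 for PEG6000. Against trehalose they were 47, 7 and 32 at 1.5-fold, and 9 for cold and 10 for PEG6000 with median-of-ratios scaling. Quantile normalization gave 0 for NaCl and 3 for PEG6000, and TPM-like scaling 3 for PEG6000. For NaCl, quantile normalization still called 35 members higher and 48 lower with no fold limit. As deposited, 2 members were called at least 2-fold for NaCl, and 91 had an unadjusted p below 0.05 in limma. Cold against NaCl gave 25 at 1.5-fold and 21 with quantile normalization, cold against PEG6000 20 and, with median-of-ratios scaling, 13, and NaCl against PEG6000 26 at 1.5-fold. The differences of trehalose effects gave 11 (PEG6000 and NaCl), 29 (PEG6000 and cold) and 17 (NaCl and cold) at 1.5-fold, and 5 for PEG6000 and NaCl with quantile normalization. The 1.5-fold limit raises counts by construction, quantile normalization removes differences in the share of the highest genes by construction, and for the other scalings the cause was not tested.

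Leaving out each library gave 10 to 13 (NaCl), 52 to 55 (PEG6000), 39 to 41 (cold) and 15 to 17 (trehalose and cold) members 2-fold from control, 96 to 97 members among the 100 highest with trehalose and 87 to 88 with trehalose and PEG6000. In the tests it gave 11 to 12 (trehalose with PEG6000 against PEG6000), 4 to 5 (trehalose with PEG6000 against trehalose), 6 to 7 (NaCl against PEG6000), 7 to 8 (cold against NaCl) and, for differences of trehalose effects, 2 to 3, 8 to 10 and 4 to 5. No pairing of libraries by replicate number was visible in expression. Same-numbered libraries of different groups had correlated deviations in 0 of 84 pairs above 0.1, and 4 of 24 libraries correlated best with their own number. Whether the libraries were collected in pairs cannot be told from these values. The replicate block left the counts of members called 2-fold at 1, 3, 11, 16, 2, 5, 7, 7 and 6 in the 9 comparisons. Depth is unknown, so counting error could not be set apart from other spread.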
